A study of Mus musculus with 6 samples.

Results

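The genes described here are 8 core genes of the Hedgehog pathway, the ligands *Shh* and *Ihh*, the receptor *Ptch1*, the signal transducer *Smo*, the ligand-binding inhibitor *Hhip* and the transcription factors *Gli1*, *Gli2* and *Gli3*. They were chosen by name, through their Ensembl mouse identifiers. No value entered that rule, but earlier results of these data were known when the genes were chosen. Of the 8 genes, 7 had a row among the 28777 genes listed for the whole series, and all 7 passed the filter on low counts. The question was how the RNA of these genes differed between cardiac outflow tracts (OFTs) of E13.5 mouse embryos labelled *Notch1*+/-; *Nos3*-/- and OFTs labelled wildtype, in 3 RNA-Seq libraries of each label. The mutant label stands for loss of 1 allele of the receptor *Notch1* and of both alleles of *Nos3*, the endothelial nitric oxide synthase, and the wildtype label for *Notch1*+/+; *Nos3*+/+ littermates. Both kinds of embryo came from colonies kept on a C57/BL6J background. Both alleles are germline knockouts, so all cells of an embryo carry them. Each library held 3 pooled OFTs, and no value belongs to a single embryo.

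In the Hedgehog pathway a secreted ligand (Shh, Ihh or Dhh) binds Ptch1, which otherwise holds the membrane protein Smo inactive. Active Smo gathers in the primary cilium, where the Gli proteins are processed. Gli3 acts mostly as a repressor and Gli2 mostly as an activator, while *Gli1*, *Ptch1* and *Hhip* are themselves targets that the pathway switches on. During heart development, Shh from the pharyngeal endoderm acts on the second heart field and neural crest cells that build and divide the outflow tract.

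The 6 libraries held between 34729103 and 44387490 counts. Counts are whole reads on the exons of a gene and are given below as CPM, counts scaled by TMM to a common library size, with the SD over the 3 libraries of a label. Each log2 fold change compares the mutant with the wildtype label in edgeR's quasi-likelihood fit, and genes were called where the adjusted p did not exceed 0.05 (Benjamini-Hochberg, over the 28157 genes tested). Of the targeted genes, *Nos3* had 42.4 ± 9.18 CPM under the wildtype label and 21.5 ± 0.949 CPM under the mutant label. *Notch1* had 82.0 ± 7.09 and 152 ± 10.9 CPM, so it was higher under the label of a heterozygous loss (log2 fold change 0.89, edgeR adjusted p = 0.0313), and every direction below is that of the labels. Markers of the tissue were present, with a summed level of 9 myocardial genes between 16663 and 33078 CPM and of 8 cushion mesenchyme genes between 4092 and 9517 CPM. Wildtype replicate 1 stood apart from the other libraries of its label in cushion mesenchyme markers (8011 CPM, against 5402 and 4092 CPM), a level inside the range of the libraries labelled mutant (7430 to 9517 CPM). Wildtype replicate 3 stood apart from the other libraries of its label in myocardial markers (33078 CPM, against 24178 and 24533 CPM). Calls of the core and named pathway genes that change when wildtype replicate 1 is left out are given below.

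The core genes fell into 3 ranges of level. Per kilobase of exon, *Smo* was the most abundant, at 17.8 ± 2.33 CPM per kb under the wildtype label and 23.4 ± 3.62 CPM per kb under the mutant label. *Gli3* (3.64 ± 1.64 and 5.26 ± 0.992 CPM per kb), *Ptch1* (2.37 ± 0.179 and 2.59 ± 0.166 CPM per kb) and *Gli2* (2.03 ± 0.707 and 3.32 ± 0.734 CPM per kb) formed a middle range. The libraries of these 3 genes overlapped in level, and *Gli2* lay below *Ptch1* in the mean under the wildtype label and above it under the mutant label. The target gene *Gli1* was far lower, at 0.0880 ± 0.0341 and 0.134 ± 0.0630 CPM per kb. *Ihh* (0.0280 ± 0.00514 and 0.0426 ± 0.0227 CPM per kb) and *Hhip* (0.0125 ± 0.0123 and 0.0172 ± 0.00887 CPM per kb) were lowest, and their libraries overlapped. *Smo* in its lowest library (15.1 CPM per kb) was above each of the other 6 genes in every library.

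**Figure D1:**
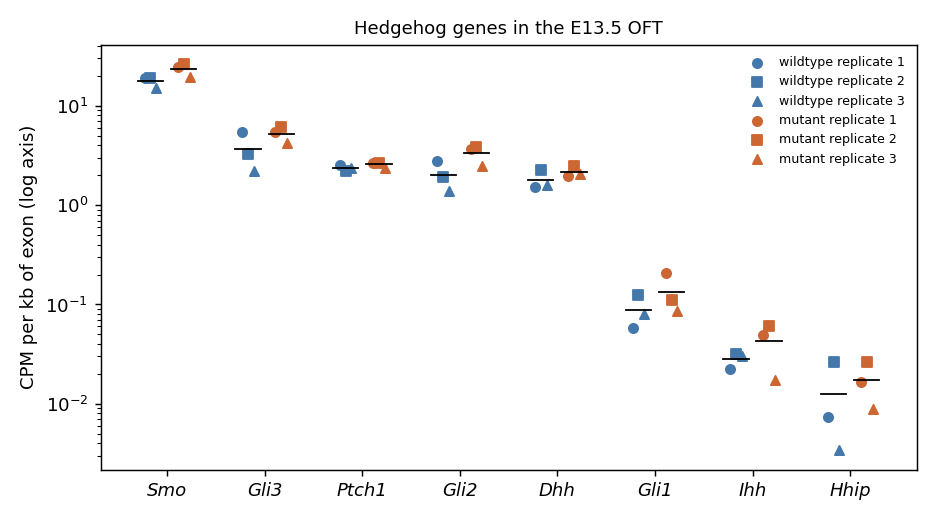
Level of the 7 listed core genes and of the third ligand, *Dhh*, in CPM per kilobase of exon on a log axis, with 1 point per library and a bar at the mean of each label (3 libraries per label). *Smo* lies between 15.1 and 26.4 CPM per kb in all 6 libraries, *Gli3*, *Ptch1*, *Gli2* and *Dhh* share a middle range, and *Gli1*, *Ihh* and *Hhip* lie at or below 0.205 CPM per kb.

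None of the 7 genes was called by edgeR (0 of 7, where 0.0213% of all genes tested were called). DESeq2 as run here also called 0 of 7, with 2.66% of all genes called. The paper's own DESeq2 analysis, in contrast, lists the human homolog *GLI2* among genes differentially expressed in the mutant OFT. The cause of that difference was not tested. By limma-voom 0 of 7 were called, and only 5 of all 28157 genes tested. DESeq2 gave no adjusted p for *Gli1*, *Ihh* and *Hhip*, so its count rests on the other 4 genes. *Smo* and *Gli2* had an unadjusted p under 0.05, both with higher values under the mutant label, where 8.23% of all genes did, and 0 of 7 were on the lower side, where 7.83% of all genes were. *Smo* was the 1 gene of the 7 whose labels did not overlap, with all 3 libraries labelled mutant above all 3 labelled wildtype, a pattern of 10.7% of all genes. The median log2 fold change of the 7 genes was 0.53, with a range of 0.13 to 0.71, and that of all genes tested was 0.01. In bulk tissue, fewer cells of a type and less RNA per cell cannot be told apart.

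**Figure D2:**
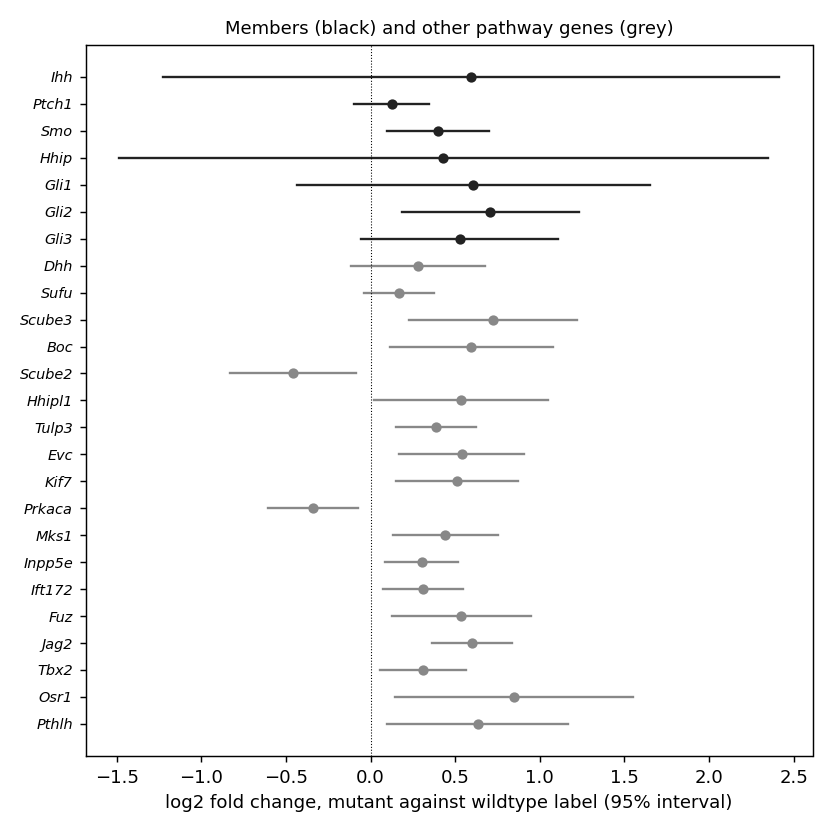
Log2 fold change (libraries labelled mutant against wildtype) of the 7 core genes (black) and of the named pathway genes (grey), with bars for the 95% intervals from edgeR's quasi-likelihood fit on 3 libraries per label. All 7 core genes lie at or above 0.13, and the intervals of *Smo* and *Gli2* lie above 0 while those of *Ptch1*, *Gli1*, *Gli3*, *Ihh* and *Hhip* include it.

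Stretches upstream of the start are shown for the 4 core genes that averaged at least 1 CPM, because the RNA values below rest on these genes. They are the 250 bases before the RefSeq start of each gene in GRCm38.p6, written 5′ to 3′ on the strand of the gene, with each GC box (GGGCGG on either strand) in capitals. The windows of *Ptch1* and *Gli3* lie inside the spans of the genes in the mm10 annotation given below, before a RefSeq start within the gene, and overlap 0 bases of their own exons.
Ptch1 promoter window, chr13:63565736-63565985, minus strand: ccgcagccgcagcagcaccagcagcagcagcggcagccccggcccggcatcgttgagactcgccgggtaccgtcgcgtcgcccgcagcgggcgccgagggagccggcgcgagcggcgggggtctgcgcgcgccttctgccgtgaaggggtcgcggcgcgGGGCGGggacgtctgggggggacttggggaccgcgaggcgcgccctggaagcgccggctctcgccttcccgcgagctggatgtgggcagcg
Smo promoter window, chr6:29735247-29735496, plus strand: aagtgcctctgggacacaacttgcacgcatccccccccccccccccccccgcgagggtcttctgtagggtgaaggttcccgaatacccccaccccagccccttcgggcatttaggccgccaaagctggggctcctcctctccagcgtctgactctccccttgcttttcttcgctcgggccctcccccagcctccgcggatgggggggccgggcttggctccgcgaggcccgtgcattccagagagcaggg
Gli2 promoter window, chr1:119053620-119053869, minus strand: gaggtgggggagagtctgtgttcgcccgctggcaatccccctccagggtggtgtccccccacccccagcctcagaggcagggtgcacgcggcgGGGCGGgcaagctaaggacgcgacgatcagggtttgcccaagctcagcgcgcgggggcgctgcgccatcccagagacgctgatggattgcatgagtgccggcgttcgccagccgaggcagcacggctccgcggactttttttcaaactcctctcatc
Gli3 promoter window, chr13:15463473-15463722, plus strand: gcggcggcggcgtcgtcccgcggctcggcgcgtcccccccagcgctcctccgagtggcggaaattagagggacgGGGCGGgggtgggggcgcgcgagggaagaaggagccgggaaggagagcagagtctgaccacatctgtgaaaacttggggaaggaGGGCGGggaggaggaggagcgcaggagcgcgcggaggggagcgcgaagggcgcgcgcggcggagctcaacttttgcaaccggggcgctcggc
The GLI consensus GACCACCCA, searched on both strands, was in 0 of the 6 windows held for these genes (*Ptch1*, *Smo*, *Gli2*, *Gli3*, *Ihh* and *Hhip*), in 0 of 72 windows of the other pathway genes and in 0.225% of all 32851 windows of this length. A GC box was in 5 of the 6 windows, in 44 of the 72 and in 32.7% of all windows. The GC content of the 6 windows was between 67.2% (*Gli2*) and 78.4% (*Ptch1*), with a median of 52.4% over all windows. The window of *Smo* holds no GC box, that of *Gli3* holds 2, and those of *Ptch1* and *Gli2* hold 1 each. These matches describe the letters of the windows and were not measured as binding.

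Of the ligands, *Ihh* had few reads and *Dhh* had more. *Shh* (ENSMUSG00000002633, chr5:28456815-28467256 of mm10, minus strand), the ligand best known from the pharyngeal endoderm, had no row among the genes given and was not analysed here. The smallest row sum among the genes given was 5, and whether *Shh* was left out for few reads is not given. Its exons share 446 bases with *9530036O11Rik* and 361 with *Gm26894*, both on the other strand. *Shh* lies 4.07 Mb from *Nos3* on the same chromosome. *Ihh* (ENSMUSG00000006538, chr1:74945315-74951672, minus strand), known mainly as the ligand of growing cartilage, had 3, 4 and 3 reads in the libraries labelled wildtype and 6, 7 and 2 in those labelled mutant. With so few reads its log2 fold change of 0.59 had a 95% interval from −1.23 to 2.42 (adjusted p = 0.766 from edgeR's test), and a difference was not detectable at this depth. *Dhh*, the ligand known from Schwann and Sertoli cells, is not one of the 8 genes but was the ligand with more reads. It had 6.66, 9.88 and 6.96 CPM under the wildtype label and 8.70, 10.9 and 8.96 CPM under the mutant label. These values overlapped, with a log2 fold change of 0.28 (95% interval −0.11 to 0.68, adjusted p = 0.457 from edgeR's test). Markers of foregut endoderm and airway epithelium, the tissue known to make Shh, were nearly absent, with a summed level of 1.01 to 2.34 CPM under the wildtype label and 0.796 to 1.97 CPM under the mutant label for the 8 of 10 genes tested. *Foxa2* and *Nkx2-1*, defining markers of that tissue, had 5 reads each over all libraries and were left out by the filter.

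*Ptch1* (ENSMUSG00000021466, chr13:63508328-63573598, minus strand), receptor and target of the pathway, had the smallest difference between the labels. It had 36.3, 31.3 and 33.2 CPM in the libraries labelled wildtype and 38.0, 38.0 and 33.9 CPM in those labelled mutant. The lowest library labelled mutant lay below the highest labelled wildtype. Its log2 fold change of 0.13 (95% interval −0.097 to 0.35, adjusted p = 0.569 from edgeR's test) did not pass the threshold, and the exact permutation test of its levels gave a two-sided p = 0.2, where 3 libraries against 3 cannot go below 0.1. *Ptch1* also varied least over the 6 libraries among the 4 genes averaging at least 1 CPM, with a range of 0.28 on the log2 scale against 0.81 for *Smo*, 1.48 for *Gli2* and 1.47 for *Gli3*.

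*Smo* (ENSMUSG00000001761, chr6:29735503-29761365, plus strand), the transducer that Ptch1 holds inactive, was at 107, 108 and 84.8 CPM under the wildtype label. Under the mutant label it was at 138, 149 and 109 CPM. All libraries labelled mutant were above all those labelled wildtype, the closest pair being mutant replicate 3 (109 CPM) and wildtype replicate 2 (108 CPM). The mean was 99.9 ± 13.1 CPM under the wildtype label and 132 ± 20.3 CPM under the mutant label, and the difference was not called (log2 fold change 0.40, 95% interval 0.097 to 0.70, adjusted p = 0.233 from edgeR's test and 0.0929 from DESeq2's). The exact permutation test gave a two-sided p = 0.1, the smallest that 3 libraries against 3 allow.

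*Hhip* (ENSMUSG00000064325, chr8:79965851-80058006, minus strand), the inhibitor that binds ligands at the cell surface, had 3, 10 and 1 reads under the wildtype label and 6, 9 and 3 reads under the mutant label. The counts overlapped, and the log2 fold change of 0.43 had a 95% interval of −1.49 to 2.35 (adjusted p = 0.848 from edgeR's test), so a difference was not detectable at this depth. Another gene model on the other strand shares 175 bases of exon with *Hhip*, and whether counting used strand is not given in the sources used here.

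Of the transcription factors, *Gli1* (ENSMUSG00000025407, chr10:127329882-127341974, minus strand), the activator induced by the pathway, had 13, 26 and 13 reads under the wildtype label. It had 41, 21 and 16 reads under the mutant label. Mutant replicate 1 was the highest of the 6 and the other libraries labelled mutant lay within the range of the wildtype label. The log2 fold change of 0.61 (95% interval −0.44 to 1.65) did not pass the threshold (edgeR adjusted p = 0.556). Without mutant replicate 1 it was 0.16 and without wildtype replicate 2 it was 0.96. *Gli1* shares 62 bases of exon with *Arhgap9* and 265 with a predicted gene, both on the opposite strand.

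*Gli2* (ENSMUSG00000048402, chr1:118834132-119053619, minus strand), the main activator, had 19.1, 13.2 and 9.43 CPM in the libraries labelled wildtype and 25.0, 26.4 and 17.1 CPM in those labelled mutant. Wildtype replicate 1 lay above mutant replicate 3, and the other libraries of the labels were apart. Among the 7 genes it had the largest log2 fold change, 0.71 (95% interval 0.19 to 1.23, adjusted p = 0.224 from edgeR's test and 0.0595 from DESeq2's). *Gli3* (ENSMUSG00000021318, chr13:15463235-15730026, plus strand), the main repressor, had 52.1, 31.3 and 21.3 CPM in the libraries labelled wildtype and 52.1, 59.0 and 40.2 CPM in those labelled mutant. Here wildtype replicate 1 was at the level of mutant replicate 1. The log2 fold change of *Gli3* was 0.53 (95% interval −0.054 to 1.11, adjusted p = 0.350 from edgeR's test). Without wildtype replicate 1 both genes were called by edgeR, *Gli2* at a log2 fold change of 1.01 (adjusted p = 0.0260) and *Gli3* at 0.94 (adjusted p = 0.0249). Leaving out this library also raised the number of all genes called from 6 to 2593 of 27450 (9.45%; 4.15% higher and 5.3% lower). Without each of the other libraries in turn neither was called, with log2 fold changes of 0.50 to 0.88 for *Gli2* and 0.27 to 0.67 for *Gli3*. The low end of both ranges came without wildtype replicate 3. The exons of *Gli3* overlap a predicted gene on the other strand over 188 bases.

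The balance of the Gli genes within a library was given by ratios of reads, which do not depend on the scaling of libraries. The ratio of *Gli2* to *Gli3* reads was 0.366, 0.424 and 0.443 in the libraries labelled wildtype and 0.481, 0.448 and 0.425 in those labelled mutant. On the log2 scale the difference was 0.14 (exact permutation test, two-sided p = 0.2), and the ranges overlapped. The log2 ratio of *Gli1* to *Gli2* reads was −5.97, −4.38 and −4.50 under the wildtype label and −4.59, −5.52 and −5.29 under the mutant label, a difference of −0.18 that was smaller than the SD within either label (exact permutation test, two-sided p = 0.8). Its sign turned when wildtype replicate 2 (0.10), wildtype replicate 3 (0.041) or mutant replicate 2 (0.012) was left out.

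Markers of cushion mesenchyme are given beside the Gli genes because their levels over the 6 libraries were in the same order as those of *Gli2*. This list holds *Twist1*, *Sox9*, *Postn*, *Vcan*, *Prrx1*, *Col1a1*, *Col3a1* and *Pdgfra*, genes of the cells that fill the endocardial cushions and of other embryonic mesenchyme. Their summed level was 8011, 5402 and 4092 CPM under the wildtype label and 8728, 9517 and 7430 CPM under the mutant label. Of the 8 markers, 0 were called, 6 had an unadjusted p under 0.05 on the higher side, and their median log2 fold change was 0.60. Relative to the mean of the 6 libraries, the log2 levels in wildtype replicate 3, the lowest library, were −0.91 for the markers, −0.87 for *Gli2* and −0.92 for *Gli3*. In that library *Smo* was at −0.42 and *Ptch1* at −0.078. The order of *Gli3* was the same but for wildtype replicate 1 and mutant replicate 1, both at 0.37, where the markers were at 0.27 and 0.46. *Smo* had another order, with −0.085 and −0.083 in wildtype replicates 1 and 2, where the markers were at 0.27 and −0.45. In mutant replicate 2, the highest library, the markers were at 0.47, *Gli2* at 0.61, *Gli3* at 0.55, *Smo* at 0.38 and *Ptch1* at 0.12. With the mean of the markers as a covariate, a setting chosen after seeing the data, the log2 fold changes were 0.077 for *Gli2*, −0.20 for *Gli3*, 0.15 for *Smo* and 0.011 for *Ptch1*, with 0 of the 7 genes called. The 9 myocardial markers went the other way, with a median of −0.50. Of these 9, 6 were at an unadjusted p under 0.05 on the lower side, where 7.83% of all genes were. The myocardial markers summed to 24178, 24533 and 33078 CPM under the wildtype label and 19863, 16663 and 23645 CPM under the mutant label. With their mean as a covariate the values were 0.27 for *Gli2*, 0.087 for *Gli3*, 0.13 for *Smo* and 0.057 for *Ptch1*. The 6 chondrocyte markers, which share *Sox9* with the mesenchyme list, had the order of *Gli2* but for mutant replicates 1 and 2. These were at 0.65 and 0.56 relative to the mean of the 6 libraries. The level of the mesenchyme markers moved with the label, and their parts in the values of *Gli2*, *Gli3* and *Smo* cannot be told apart with 3 libraries per label.

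**Figure D3:**
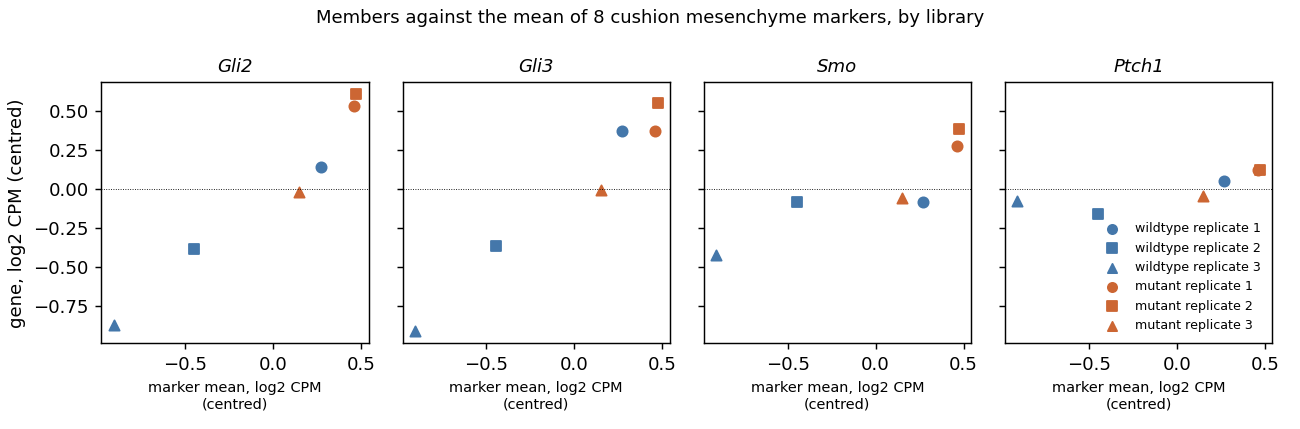
Log2 CPM of *Gli2*, *Gli3*, *Smo* and *Ptch1* in each library (vertical axis) against the mean log2 CPM of the 8 cushion mesenchyme markers (horizontal axis), both relative to the mean of the 6 libraries and coloured by label. *Gli2* and *Gli3* extend from −0.87 and −0.92 in wildtype replicate 3 to 0.61 and 0.55 in mutant replicate 2, while *Ptch1* stays between −0.16 and 0.12.

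For each core gene averaging at least 1 CPM, the protein-coding genes with the most similar profile over the 6 libraries were found among 13133 candidates by the root mean square difference of centred log2 CPM. The nearest to *Gli2* were *Cntfr*, the receptor subunit for ciliary neurotrophic factor (0.0331), *Arhgef40* (0.0360) and *Tmem178* (0.0457). The nearest to *Gli3* were *Rai14* (0.0274), the growth factor *Igf1* (0.0371) and the atypical cadherin *Fat4* (0.0589). For *Smo* they were *Ccdc102a* (0.0397), the AP-1 subunit *Junb* (0.0404) and the CREB coactivator *Crtc1* (0.0409). For *Ptch1*, which varied least, they were *Nsd3* (0.0170), *D430042O09Rik* (0.0175) and *Pacs2* (0.0176). The 6 libraries share their label structure, so these distances describe likeness in this set and carry no test.

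Other genes of the pathway were taken from 4 lists, 77 genes in all, of which 77 were tested. None was called by edgeR (0 of 77), and 1, *Jag2*, was called by DESeq2. Without wildtype replicate 1, edgeR called 8 of the 77, all 8 with higher values under the mutant label, where 9.45% of all genes were called and 4.15% were called on the higher side. At an unadjusted p under 0.05, 19 of the 77 had higher values under the mutant label, where 8.23% of all genes did, and 5 had lower values, where 7.83% did. The labels did not overlap for 15 genes on the higher side, where they did not for 10.7% of all genes, and for 3 on the lower side, where they did not for 8.94%. Their median log2 fold change was 0.12 against 0.01 over all genes. Of the 77 genes, 70 averaged at least 1 CPM. Among all 16655 genes at that level, 1693 had higher and 1978 had lower values at an unadjusted p under 0.05 in edgeR's test. Labels did not overlap for 1792 of the 16655 genes on the higher side and for 2128 on the lower. The median log2 fold change of the 16655 genes was −0.03.

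Among 12 genes of ligand release, co-receptors and other receptors, 4 were at an unadjusted p under 0.05 on the higher side and 1 on the lower. The shares of all genes tested were 8.23% and 7.83%. *Boc*, a co-receptor that binds Hedgehog ligands beside Ptch1, had 42.7, 32.6 and 21.1 CPM under the wildtype label and 48.4, 57.8 and 39.9 CPM under the mutant label. Wildtype replicate 1 was within the range of the libraries labelled mutant, as it was for *Gli3*. The log2 fold change of *Boc* was 0.60 (95% interval 0.11 to 1.08, adjusted p = 0.245 from edgeR's test). It was 0.85 and called without wildtype replicate 1 (edgeR adjusted p = 0.0318), and 0.014 and not called with the cushion mesenchyme covariate. *Scube3* and *Scube2*, of the family of secreted proteins that help release lipid-modified ligands, had opposite signs. *Scube3* was at 7.67 ± 2.40 and 12.7 ± 2.25 CPM, with labels that did not overlap (log2 fold change 0.72, adjusted p = 0.213 from edgeR's test). *Scube2* was at 18.8 ± 4.15 and 13.7 ± 1.76 CPM (log2 fold change −0.46, adjusted p = 0.248 from edgeR's test). *Hhipl1*, a relative of *Hhip*, was at 4.69 ± 1.39 and 6.82 ± 1.24 CPM (log2 fold change 0.53, adjusted p = 0.298 from edgeR's test).

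The 20 intracellular regulators had a median log2 fold change of 0.15, with 7 at an unadjusted p under 0.05 on the higher side and 2 on the lower. Of all genes tested, 8.23% were on the higher side at that threshold and 7.83% on the lower. *Tulp3*, which carries receptors into the cilium, had 25.5, 23.5 and 21.3 CPM under the wildtype label and 31.1, 32.6 and 28.3 CPM under the mutant label, with no overlap (log2 fold change 0.39, adjusted p = 0.194 from edgeR's test). *Evc*, part of the complex that transmits the signal of Smo at the base of the cilium, had 16.2, 13.8 and 10.6 CPM under the wildtype label and 19.7 ± 2.89 CPM under the mutant label, with no overlap (log2 fold change 0.54, adjusted p = 0.211 from edgeR's test). *Kif7*, a ciliary kinesin that organises Gli proteins, was at 10.7 ± 1.57 and 15.3 ± 2.78 CPM (log2 fold change 0.51, adjusted p = 0.218 from edgeR's test). Without wildtype replicate 1 edgeR called these 3 genes, *Tulp3* at 0.45 (adjusted p = 0.0291), *Evc* at 0.69 (adjusted p = 0.0328) and *Kif7* at 0.64 (adjusted p = 0.0427). With each library left out in turn, their lowest log2 fold changes were 0.32, 0.39 and 0.43, in that order. Over all 18 alternative settings the lowest were 0.21, 0.15 and 0.20. *Prkaca*, the catalytic subunit of the kinase that primes Gli proteins for processing, had the opposite sign, at 148 ± 22.6 and 117 ± 8.67 CPM with no overlap (log2 fold change −0.34, adjusted p = 0.239 from edgeR's test). *Sufu*, which holds Gli proteins inactive, was at 38.9, 37.3 and 37.9 CPM under the wildtype label and 46.2, 41.8 and 40.1 CPM under the mutant label. The labels of *Sufu* were apart, with a small difference (log2 fold change 0.17, 95% interval −0.040 to 0.38, adjusted p = 0.401 from edgeR's test). After a correction for GC content and length the log2 fold change of *Sufu* was 0.0065.

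The 30 genes of the primary cilium and its transport had a median log2 fold change of 0.092, with 4 at an unadjusted p under 0.05 on the higher side and 1 on the lower. All 30 averaged at least 1 CPM, and 1693 of the 16655 genes at that level were on the higher side and 1978 on the lower. *Mks1*, of the transition zone, was at 5.93 ± 0.225 CPM under the wildtype label and 8.04 ± 0.666 CPM under the mutant label (log2 fold change 0.44, adjusted p = 0.218 from edgeR's test). *Inpp5e*, the ciliary phosphoinositide phosphatase, had a log2 fold change of 0.30 (edgeR adjusted p = 0.220), and its end lies 48.7 kb from the targeted gene *Notch1* on chromosome 2. *Ift172*, of the transport complex that builds the cilium, was at 46.2 ± 2.34 and 57.3 ± 6.65 CPM (log2 fold change 0.31, adjusted p = 0.231 from edgeR's test). *Fuz*, a planar polarity effector needed for cilium formation, was at 4.53 ± 0.640 and 6.59 ± 1.19 CPM (log2 fold change 0.54, adjusted p = 0.234 from edgeR's test). The labels of these 4 genes, named for their small unadjusted p, did not overlap, a pattern that 10.7% of all genes had on the higher side.

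Among 15 Hedgehog response genes, 4 were at an unadjusted p under 0.05 on the higher side and 1 on the lower, with a median log2 fold change of 0.20. Of all genes tested, 8.23% were on the higher side at that threshold and 7.83% on the lower. *Jag2*, also a ligand of the Notch receptors, had 18.1, 19.3 and 16.6 CPM under the wildtype label and 28.5, 28.3 and 25.1 CPM under the mutant label. The labels were well apart, and *Jag2* was called by DESeq2 (adjusted p = 0.00107) but not by edgeR (log2 fold change 0.60, 95% interval 0.36 to 0.84, adjusted p = 0.128). Without wildtype replicate 1 it was called by edgeR at 0.61 (adjusted p = 0.0208). *Osr1*, a transcription factor of the second heart field, had 8.91, 10.7 and 6.19 CPM under the wildtype label and 15.6, 23.0 and 8.04 CPM under the mutant label. Its log2 fold change was 0.85 (95% interval 0.14 to 1.55, adjusted p = 0.252 from edgeR's test), with mutant replicate 3 inside the range of the wildtype label. *Pthlh*, the parathyroid hormone-related peptide, was at 2.89 ± 0.960 and 4.50 ± 0.406 CPM (log2 fold change 0.63, adjusted p = 0.260 from edgeR's test). *Tbx2*, a T-box repressor of chamber genes, was at 16.9 ± 1.86 and 21.0 ± 0.724 CPM (log2 fold change 0.31, adjusted p = 0.245 from edgeR's test). The best-known target genes among those measured, *Gli1*, *Ptch1* and *Hhip*, were none of them at an unadjusted p under 0.05. *Gli1* (13 to 41 reads per library) and *Hhip* (1 to 10) had wide 95% intervals, so little can be said of them at this depth.

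**Figure D4:**
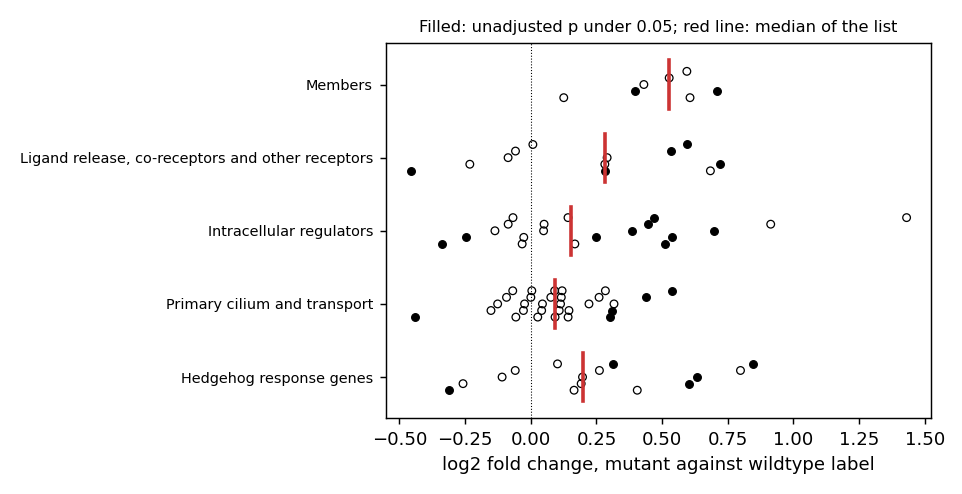
Log2 fold change (libraries labelled mutant against wildtype) of each gene in the 7 core genes and the 4 pathway lists, with 1 point per gene, filled where the unadjusted p was under 0.05, and a red bar at the median of each list. The medians are 0.53 for the core genes, 0.28 for ligand release and co-receptors, 0.15 for intracellular regulators, 0.092 for the primary cilium and 0.20 for response genes.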

How the data were processed

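Bulk RNA-Seq counts of E13.5 OFTs were analysed in 6 libraries. The authors aligned paired-end reads with TopHat2 2.1.0 and Bowtie2 to mm10 and deposited whole-number counts of reads on exons per gene, without normalization, and the submitters' processing notes also name DESeq2 1.26.0. The smallest row sum was 5. How reads on exons shared by overlapping genes were counted is not given in the sources used here, and the errors given do not cover the dissection.

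Genes with more than 5 reads over the 6 libraries (28157) were tested in R 4.3.3 with edgeR 4.0.16 (TMM, quasi-likelihood, Benjamini-Hochberg, 0.05), with DESeq2 1.42.0 and limma 3.58.1 (voom) as alternatives. Single levels were compared by an exact two-sided permutation test of log2 of CPM plus 0.5. The smallest p with 3 libraries against 3 is 0.1. Positions, exon lengths and identifiers (28723 found, 54 lacking) came from the GENCODE annotation of mm10, and promoter windows from RefSeq. The code was tested on simulated counts.

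The 8 core genes, the 4 pathway lists and the 12 marker lists were chosen with earlier results of these data known. The text names all core genes, in each pathway list called genes and up to 4 others with the smallest unadjusted p and a mean of at least 1 CPM, *Dhh*, *Sufu*, the 3 nearest profiles of each core gene, *Nos3* and *Notch1*. Marker genes were named in addition, and 1 gene was left out of the pathway lists and is not reported here. The titles and descriptions of wildtype replicates 2 and 3 give opposite library numbers, and numbers here follow the titles. Alternatives covered the test, scaling, filter, threshold, replicate block, GC content and length, marker covariates and each library left out. Single-cell and patient data were not used here.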

Additional observations from a re-analysis of the deposited data

How the results depend on the processing

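The labels do not say that a replicate number marks a shared litter or batch. The correlations of deviations from the label means of same-numbered libraries were 0.096, 0.159 and 0.420 by the titles, and 0.096, −0.441 and −0.121 by the descriptions, and wildtype replicate 1 correlated best with mutant replicate 2 (0.277). With a replicate block by the titles, 3 core genes were called (*Gli2*, *Gli3* and *Smo*), with 13 pathway genes (12 higher, 1 lower) and 1577 of all genes. With that block and a correction for GC content and length the numbers were 2 (*Gli2* and *Gli3*), 16 (10 higher, 6 lower) and 2255. With a block by the descriptions they were 0, 0 and 83. With the GC and length correction alone they were 0, 0 and 4. Log2 fold changes were then 0.52 for *Gli2*, 0.47 for *Gli3*, 0.22 for *Smo* and 0.039 for *Ptch1*. Of the core and named pathway genes, *Scube2* (−0.50), *Prkaca* (−0.37) and *Pthlh* (0.70) moved away from 0 with this correction. The others moved towards 0. DESeq2 as run here called 0 core genes, 1 pathway gene and 749 of all genes. The cushion mesenchyme covariate gave 14 of all genes, and an adjusted p of at most 0.01 gave 2. The cause of these differences was not tested.

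With each library left out in turn, 0 to 2 core genes, 0 to 8 pathway genes and 1 to 2593 of all genes were called. The high ends came without wildtype replicate 1. The difference in the log2 ratio of *Gli1* to *Gli2* reads was between −0.69 and 0.10, and that of *Gli2* to *Gli3* between 0.057 and 0.19. Of 448 values of 25 genes under 18 settings, 416 kept their direction without a call, 29 kept it and were called, and 3 were opposite. These were *Ihh* (−0.054) and *Hhip* (−0.65) with the myocardial covariate, and *Gli3* (−0.20) with the cushion mesenchyme covariate. Scaling by library size only moved the median of all genes to 0.11. The filterByExpr filter left out *Ihh* and *Hhip*. With 1 to 10 reads per library, depth limits what can be said of *Ihh* and *Hhip*.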

Other observations

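Of the other cell markers, chondrocyte genes summed to 182 to 365 CPM under the wildtype label and 278 to 444 CPM under the mutant label, with 3 of 6 at an unadjusted p under 0.05 on the higher side. Blood genes summed to 3050 to 6255 and 3270 to 3403 CPM, with 4 of 5 on the lower side. Airway and foregut mesenchyme genes, which lie beside the endoderm known to make Shh, summed to 0.339 to 1.37 and 1.35 to 2.22 CPM over 3 genes, with 0 at an unadjusted p under 0.05. Endothelial sums were 916 to 1218 and 997 to 1094 CPM, with 1 of 7 on the higher side. Smooth muscle sums were 1564 to 2057 and 1398 to 1619 CPM, with 2 of 5 on the higher side and 1 on the lower. Epicardial sums were 198 to 326 and 207 to 270 CPM, with 0 of 6 at that threshold. Neural crest and glia sums were 21.9 to 35.9 and 30.8 to 39.8 CPM, with 1 of 4 on the higher side. Neuronal sums reached at most 25.0 CPM under the wildtype label and were 24.2 to 33.5 CPM under the mutant label, with 1 of 5 on the higher side. Macrophage sums were 71.6 to 108 and 74.1 to 92.9 CPM, with 1 of 5 on the higher side. Over all genes tested, 8.23% were at an unadjusted p under 0.05 on the higher side and 7.83% on the lower. By edgeR's quasi-likelihood test, 0 of these markers had an adjusted p of at most 0.05.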
